A study of Mus musculus with 3 samples.

Results

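Syndecans and glypicans are the cell surface proteoglycans that carry heparan sulfate, and their RNA was followed here in sorted mouse synovial cells cultured at 3 levels of stiffness. The members were taken by gene name: Sdc1, Sdc2, Sdc3, Sdc4, Gpc1, Gpc2, Gpc3, Gpc4 and Gpc6, which are 9 of the 56833 genes of the deposited table. All 9 were found, and 8 had a mean of at least 50 normalized counts over the 3 libraries; Gpc2 was the exception.

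The cells came from ankle synovium of mice carrying Efhd1CreER and the Ai9 reporter. Cre recombinase expressed from Efhd1 switches on tdTomato, and the tdTomato-positive cells, labelled telocytes, were purified by flow cytometry. They were kept for 24 h on collagen-coated CytoSoft plates of 0.2 kPa, 8 kPa or 64 kPa, named soft, intermediate and stiff below; genotype, tissue, sort and coating were the same at every level. The series asks whether stiffness alters differentiation of these cells toward fibroblasts. Each level had 1 library, so no difference has a replicate check, no p-value is given, and a difference between cultures cannot be told apart from one between stiffness levels.

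Heparan sulfate is a long sulfated sugar chain that is built on a core protein in the Golgi. Syndecans are core proteins that cross the membrane and end in a short cytoplasmic tail, which binds adaptor proteins and connects to the actin cytoskeleton. Glypicans are held on the outer face of the membrane by a lipid anchor and are known for tuning Wnt, hedgehog, BMP and FGF signals. In connective tissue both families gather growth factors and chemokines at the cell surface, and syndecan-4 works with integrins at focal adhesions.

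Reads counted on the genes of the table numbered 25487064 (soft), 28081600 (intermediate) and 26474862 (stiff), and the 9 members took 0.280%, 0.301% and 0.264% of them. A normalized count is a read count divided by the size factor of its library. One read was worth 0.943 to 1.03 normalized counts. The sorted population was checked against its label. Efhd1 had 10, 5 and 3 reads on soft, intermediate and stiff plates, tdTomato had 818, 1193 and 2668 normalized counts, and Pdgfra had 5884, 6298 and 5118. Of the other 5 telocyte markers, Cd34 stood at 235 to 318, Kit at 38.7 to 45.1, Foxl1 at 186 to 238 and Vim at 94005 to 111934 normalized counts, and Nes, an intermediate filament gene, had 169, 291 and 774. Here a marker was called when its log2 ratio was at least 0.5 in size and its mean at least 50 normalized counts. Of the 6 telocyte markers with that mean, 2 were called between stiff and soft, both higher: tdTomato at 1.70 and Nes at 2.19. Over all genes with that mean 11.8% were called higher and 3.77% lower. Macrophage RNA was present too, as all 12 macrophage markers had reads in every library. The 6 endothelial markers summed to 52.3 to 73.8 normalized counts and the 6 T and cytotoxic cell markers to 275, 371 and 565 on soft, intermediate and stiff plates. Cd3d and Cd3e had no read, and nearly all of the latter sum was Ptprc, a gene of all white blood cells, with 274, 368 and 564 normalized counts.

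The promoters of Sdc1 and Sdc3 are shown because these syndecans had the lowest and the highest log2 ratio of stiff to soft among the 8 members with a ratio given below. Each run is the 250 bases before the RefSeq start site, taken from build GRCm38.p6, 5′ to 3′ on the gene's strand; capitals mark the GC box GGGCGG or its reverse complement.
Sdc1 (chr12:8771146-8771395, plus strand): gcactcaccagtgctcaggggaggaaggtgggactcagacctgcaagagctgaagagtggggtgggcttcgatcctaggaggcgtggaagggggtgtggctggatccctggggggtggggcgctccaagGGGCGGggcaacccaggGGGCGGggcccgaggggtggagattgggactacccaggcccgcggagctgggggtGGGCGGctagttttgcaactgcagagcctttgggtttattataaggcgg
Sdc3 (chr4:130792287-130792536, plus strand): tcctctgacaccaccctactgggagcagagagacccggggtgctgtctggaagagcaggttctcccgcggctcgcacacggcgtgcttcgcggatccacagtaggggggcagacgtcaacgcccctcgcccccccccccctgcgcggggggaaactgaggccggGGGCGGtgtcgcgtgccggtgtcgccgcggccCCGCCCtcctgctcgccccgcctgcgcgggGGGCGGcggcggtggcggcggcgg
Both runs are rich in G and C, at 66.0% for Sdc1 and 76.4% for Sdc3, against a median of 52.4% over 32851 promoters. Each holds 3 GC boxes, a motif found on either strand in 32.7% of all promoters, and CG dinucleotides number 10 in Sdc1 and 32 in Sdc3. The TEAD core GGAATG, the AP-1 site TGANTCA, the TATA box TATAAA and the CArG box bound by SRF were also searched on both strands. None of these 4 motifs is in either run, while 12.6%, 6.75%, 12.4% and 1.47% of all promoters hold them, in that order. Of the other members, the RefSeq table held Sdc4, Gpc2, Gpc3 and Gpc4, each with at least 1 GC box, and Gpc4 holds 1 TEAD core.

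Levels of different genes were compared per kilobase of the Ensembl canonical transcript. Syndecans made up most of the family RNA on this scale: in the soft library the 4 syndecans summed to 16234 and the 5 glypicans to 2282 normalized counts per kilobase. Sdc1, the main syndecan of epithelia and plasma cells, was the highest, at 7348, 7268 and 5548 per kilobase on soft, intermediate and stiff plates. Sdc4 came next, at 5323, 5318 and 4790 per kilobase. Averaged over the libraries, the per kilobase level of Sdc1 was above that of 97.9% of the genes that averaged 50 normalized counts or more.

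Sdc2 and Sdc3 changed places in the order of levels. Sdc2, a syndecan typical of mesenchymal cells, had 2015, 1943 and 1781 normalized counts per kilobase on soft, intermediate and stiff plates. Sdc3, a syndecan with a long ectodomain that is prominent in the nervous system, had 1548, 2121 and 2360. Sdc3 was thus below Sdc2 in the soft library and above it in the other two. This crossing depends on transcript length: divided by the union of all exons of each gene, Sdc3 was above Sdc2 in every library, and Sdc4 was above Sdc1 in the stiff one.

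Among the glypicans the order was the same in every library: Gpc1, Gpc4, Gpc6, Gpc3, Gpc2. Gpc1, a co-receptor for FGFs, had 1230, 1522 and 1311 normalized counts per kilobase on soft, intermediate and stiff plates. Gpc4, which takes part in FGF and Wnt signalling, had 741, 765 and 699.7. Gpc6, a glypican needed for limb bone growth, had 261, 304 and 272. Gpc3, which restrains hedgehog signalling, was far lower, at 47.7, 61.6 and 63.4. Gpc2, a glypican of the developing nervous system, was covered by 3, 1 and 2 reads, at or under the 3 reads that a count of 0 allows, so no ratio is given for it. Gpc5, the remaining glypican of the mouse and not among the 9, had 1, 0 and 1 reads.

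**Figure D1:**
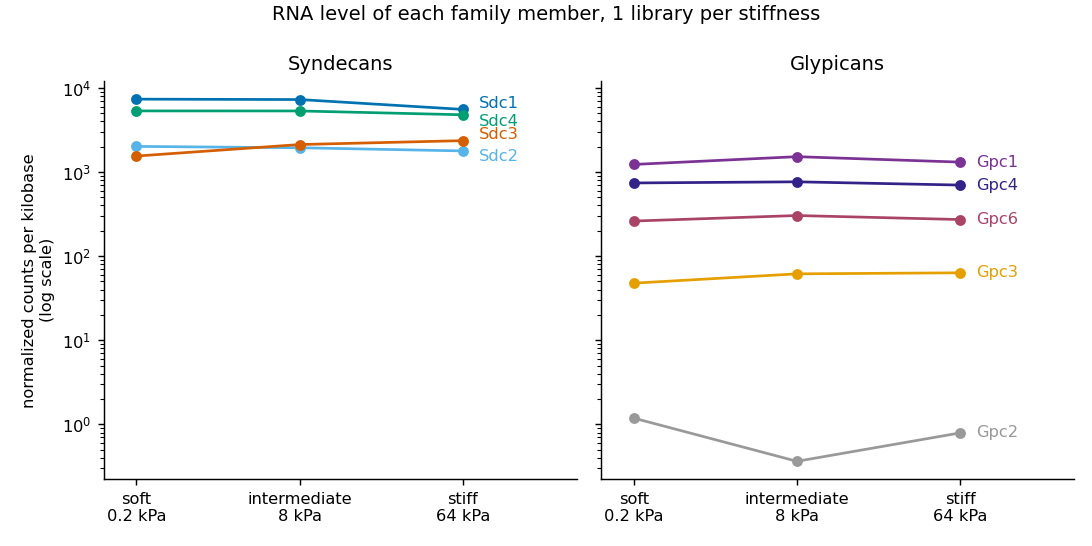
RNA level of the 4 syndecans (left) and 5 glypicans (right) on soft, intermediate and stiff plates, in normalized counts per kilobase of canonical transcript on a log axis; each point is 1 library and has no error bar. Sdc1 and Sdc4 lie on top, Sdc3 crosses Sdc2 between soft and intermediate, and Gpc2 lies near 1.

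Changes with stiffness were taken as log2 ratios of normalized counts with a pseudocount of 1, which understates the change of low genes. The interval beside a ratio is the exact 95% Clopper-Pearson one for the split of the gene's reads over both libraries, and covers counting error only. A member was called when the ratio reached 0.5 in size and its mean was at least 50 normalized counts. Between stiff and soft 1 of the 8 members, Sdc3, was called, and it was higher. Among all 11873 genes, 15.6% were called in that comparison, 11.8% higher and 3.77% lower. A count of 1 in 8 is near that share. Between intermediate and soft 0 of the 8 members were called, against 4.60% of all genes, and between stiff and intermediate 0 of 8, against 8.84%. None of the 8 members reached a log2 ratio of 1 in any comparison, a size reached by 3.60% of all genes from soft to stiff, by 0.168% from soft to intermediate and by 1.25% from intermediate to stiff. The median stiff to soft ratio of the 8 members was -0.01, and over all 11873 genes it was 0.005.

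Sdc3 had 11701 normalized counts on soft, 16037 on intermediate and 17842 on stiff plates. It was lowest on soft plates and the larger part of its difference lay between soft and intermediate. The log2 ratio was 0.45 for intermediate to soft, 0.15 for stiff to intermediate and 0.61 for stiff to soft, the last with a counting interval from 0.57 to 0.64. Of all genes, 90.9% had a lower stiff to soft ratio. The Sdc3 gene spans GRCm39 positions 130519826 to 130556217 of chromosome 4, plus strand, and its canonical transcript has 5 exons and 7560 bases with a GC content of 56.9%.

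The ratio of Sdc3 was close to that fitted for transcripts like its own. A local linear fit of the stiff to soft ratio on transcript length and GC content across genes gave 0.63 at the long, GC-rich transcript of Sdc3, against -0.13 at the 3697 bases and GC content of 42.4% of Sdc2. With this trend subtracted the stiff to soft ratio of Sdc3 was -0.02, the intermediate to soft ratio 0.10 and the stiff to intermediate ratio -0.12. With the trend subtracted stiff and soft were thus nearly level for Sdc3. Its intermediate to soft ratio stayed positive, and the sign of its stiff to intermediate ratio changed.

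Macrophage RNA also moved with stiffness, which is given here because macrophages express syndecans too. The 12 macrophage markers summed to 28901, 35688 and 62562 normalized counts on soft, intermediate and stiff plates. Of the 12, 10 were called higher in stiff than in soft, against 11.8% of all genes. None of the 12 was at 0 in any library. The summed markers had log2 ratios of 0.30 for intermediate to soft and 0.81 for stiff to intermediate. Lyz2, the lysozyme gene, made up most of the sum, with 18362, 21482 and 39173 normalized counts, and had 0.23 and 0.87. The medians of the 12 single ratios were 0.46 and 0.84, against 0.45 and 0.15 for Sdc3. Other marker lists moved too. The 6 cartilage and bone markers summed to 719, 1111 and 1149. Their sum had log2 ratios of 0.63 for intermediate to soft and 0.05 for stiff to intermediate. Only 2 of the 6 had a mean of at least 50: Col2a1, with 209, 330 and 576, and Sox9, with 467, 715 and 485. The sum of the 6 mural markers had 0.47 and -0.09, and that of the 6 basophil and mast cell markers -0.27 and -0.03. The 8 fibroblast markers summed to 243037, 288477 and 343668. Of the 8, 1 was called higher in stiff than in soft, near the share of all genes: Col1a1, with 78648, 110715 and 151834. The other 7 had smaller stiff to soft ratios, of both signs: Col1a2 0.28, Col3a1 0.26, Thy1 0.37, Pdpn 0.12, Pdgfra -0.20, Dcn -0.44 and Lum -0.36. The length and GC trend was not subtracted from the sums and calls of cell type markers. The canonical transcript of Col1a1 has 5930 bases with a GC content of 58.9%, and that of the telocyte marker Nes 6126 bases with 55.5%. In bulk RNA fewer cells of a type and less RNA per cell cannot be told apart. The part of macrophage RNA, or of RNA from the other cell types named here, in the values of the members was not tested.

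Sdc1 went the other way. It had 23557 normalized counts on soft, 23301 on intermediate and 17787 on stiff plates, so soft and intermediate were nearly level and the stiff library was low. The log2 ratio was -0.02 for intermediate to soft, with a counting interval from -0.04 to 0.01, and -0.39 for stiff to intermediate. Stiff to soft it was -0.41, with an interval from -0.43 to -0.38, short of the size of 0.5. Only 6.31% of all genes had a lower ratio.

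After subtraction of the length and GC trend the stiff to soft ratio of Sdc1 was -0.55, past 0.5 in size. Sdc1 was then the 1 member called, in place of Sdc3, against 11.6% of 11630 genes called with the trend subtracted, 7.64% higher and 3.97% lower. Plasma cells and keratinocytes express much Sdc1, and their markers were mixed. Cd79a and Mzb1 had no read in any library and Jchain at most 1, whereas Xbp1, a factor of secretory cells of many kinds, had 4088, 4169 and 4322 normalized counts on soft, intermediate and stiff plates. Among 6 keratinocyte markers, Krt14 had no read and Krt5 and Epcam at most 1, while Krt10 had 60 to 67 reads, Sfn 17 to 40 and Cdh1 10 to 18. These 6 summed to 98.4, 107 and 122 normalized counts, and their part in the values of Sdc1 was not tested. Sdc1 spans GRCm39 positions 8820854 to 8843725 of chromosome 12, plus strand, with 5 exons and 3206 bases in the canonical transcript.

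Sdc4 and Sdc2 were also lowest on stiff plates, by less. Sdc4, the syndecan of focal adhesions, had 14665 normalized counts on soft, 14652 on intermediate and 13195 on stiff plates. Its stiff to soft ratio was -0.15 (counting interval -0.19 to -0.12). Sdc2 had 7451, 7182 and 6584 normalized counts in that order, and a ratio of -0.18 from -0.23 to -0.13. The soft and intermediate libraries were nearly level for both genes, with ratios of -0.001 for Sdc4 and -0.05 for Sdc2. With the trend subtracted, the stiff to soft ratio was -0.13 for Sdc4 and -0.04 for Sdc2.

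**Figure D2:**
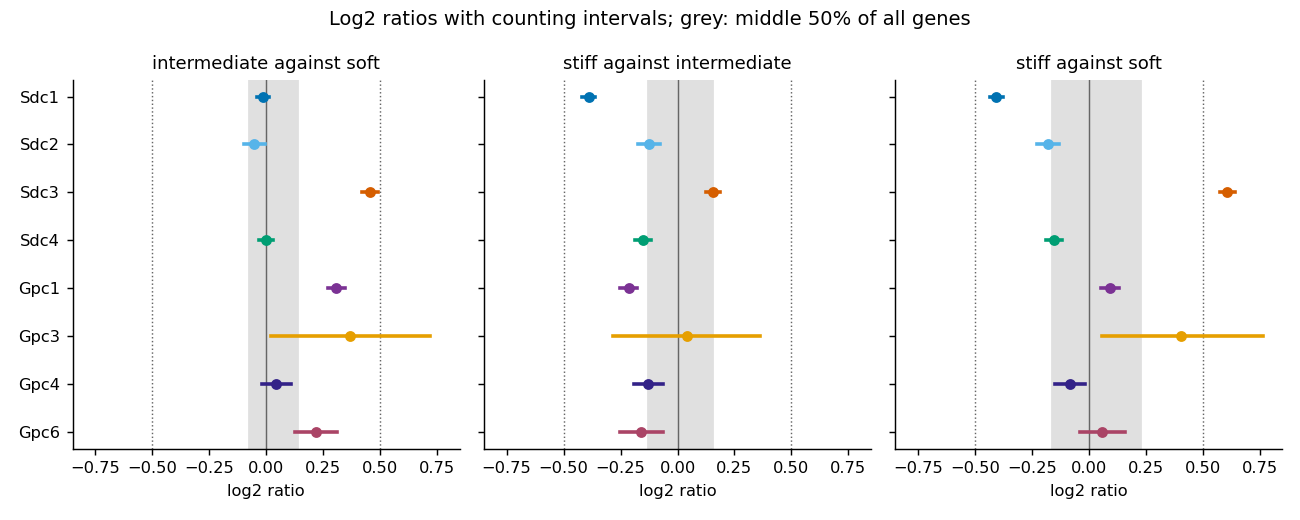
Log2 ratios (x axis) of the 8 members averaging at least 50 normalized counts, in 3 comparisons; points are the ratios, bars the 95% counting intervals, dotted lines a size of 0.5, and the grey band the middle 50% of all 11873 genes. Sdc3 lies past 0.5 between stiff and soft, Sdc1 lies left of the band in both comparisons with the stiff library, and the bars of Gpc3 are the widest.

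The makeup of the syndecan reads does not depend on how libraries are scaled, since it is a share within each library. Sdc1 took 41.1% of the reads of the 4 syndecans in the soft library, 38.1% in the intermediate and 32.1% in the stiff one. Sdc3 took 20.4%, 26.2% and 32.2%. The exact binomial intervals of Sdc3, 20.1% to 20.7%, 25.9% to 26.6% and 31.8% to 32.6%, did not overlap, and they cover counting error only. Reads of Sdc3 per read of Sdc1 were 0.497, 0.688 and 1.003. Sdc4 moved little, from 25.6% to 24.0% and 23.8%, and Sdc2 from 13.0% to 11.7% and 11.9%. The length and GC trend still enters these shares, because the 4 transcripts differ in both.

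**Figure D3:**
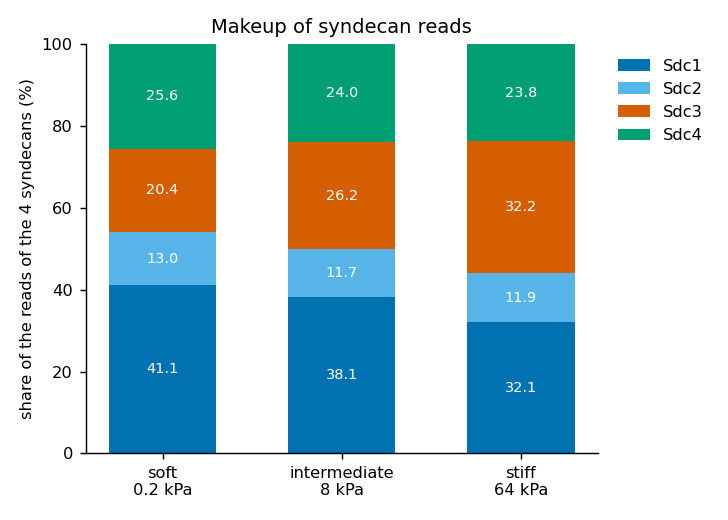
Share of the reads of the 4 syndecans (y axis, percent) taken by each one on soft, intermediate and stiff plates; each bar is 1 library. The share of Sdc3 goes from 20.4% to 32.2% and that of Sdc1 from 41.1% to 32.1%.

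Glypicans showed a different order of libraries: Gpc1, Gpc4 and Gpc6 were all highest on intermediate plates. Gpc1 had 9877 normalized counts on soft, 12222 on intermediate and 10529 on stiff plates. Its ratio was 0.31 for intermediate to soft, with a counting interval from 0.27 to 0.35, and -0.22 for stiff to intermediate. Stiff and soft were closer, at 0.09 with an interval from 0.05 to 0.13. Gpc1 has a long canonical transcript of 8029 bases with a GC content of 54.7%, and the fitted trend there was 0.59, so its stiff to soft ratio was -0.496 with the trend subtracted, just short of the called size, and its intermediate to soft ratio -0.03. The direction of Gpc1 against soft thus depends on the trend.

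Gpc6 and Gpc4 varied less. Gpc6 had 1692, 1967 and 1763 normalized counts on soft, intermediate and stiff plates, with an intermediate to soft ratio of 0.22, from 0.12 to 0.31. Net of the trend that ratio was 0.19. Gpc4 had 4006, 4133 and 3781 normalized counts, with a stiff to soft ratio of -0.08, from -0.15 to -0.02. The intermediate library was the highest for Gpc4 by a ratio of 0.04 to soft, whose interval from -0.02 to 0.11 includes 0.

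Gpc3 was low and its ratio uncertain. It had 119 reads on soft, 167 on intermediate and 158 on stiff plates, or 122, 157 and 162 normalized counts. The soft library was the lowest and the other two were close. The stiff to soft ratio was 0.41 (counting interval 0.06 to 0.76). The interval reaches past 0.5, so at this depth a difference of the called size can be neither shown nor left out. The fitted trend at Gpc3 was -0.004, and its ratio with the trend subtracted was 0.41. Gpc3 and Gpc4 are neighbours on the X chromosome, on the minus strand at 51361303 to 51703137 and 51139255 to 51254262 of GRCm39.

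**Figure D4:**
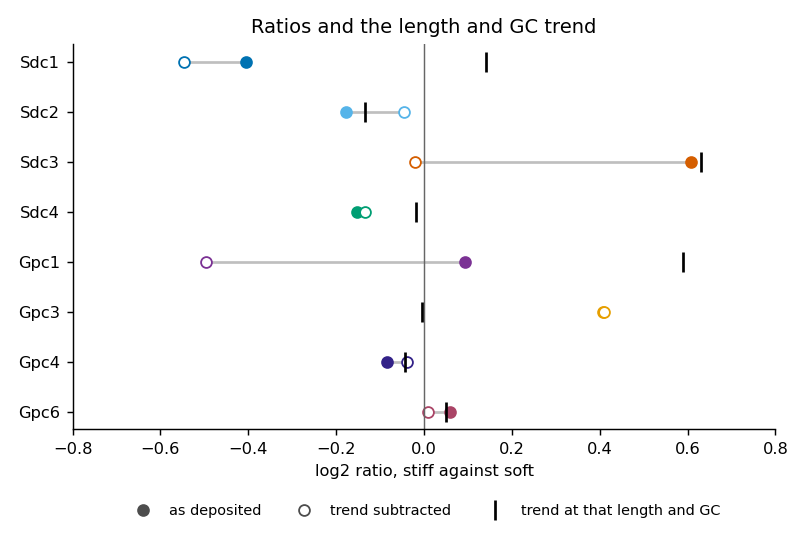
Stiff to soft log2 ratio (x axis) of the 8 members as deposited (filled points) and with the trend in transcript length and GC content subtracted (open points); black ticks mark the fitted trend at the length and GC content of each member. Sdc3 lies on its tick at 0.63, Gpc1 moves from 0.09 to -0.496, and Gpc3 does not move.

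Across both steps, 5 of the 8 members had a ratio above 0 between intermediate and soft (Sdc3, Gpc1, Gpc3, Gpc4 and Gpc6) and 2 of 8 between stiff and intermediate (Sdc3 and Gpc3). Over all genes 53.5% and 51.1% were above 0. The median of the 4 glypicans with a mean of at least 50 was 0.26 from soft to intermediate and -0.14 from intermediate to stiff. The syndecan medians were -0.01 and -0.14. The 2 comparisons share the intermediate library.

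The genes nearest in pattern were found by the distance of both step ratios among 10631 named genes averaging 100 normalized counts or more, for the 2 members with the largest stiff to soft ratio in size, over 3 libraries. For Sdc3 they were Iqgap1, Sorbs3 and Ago2, at distances of 0.005, 0.013 and 0.016, and 104 genes lay within 0.1. For Gpc3 they were Zfp598, Dzip1 and Tbxas1, at 0.011, 0.013 and 0.014, with 146 genes within 0.1. Patterns over 3 libraries are shared by many genes.

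Among the enzymes that build heparan sulfate few reached the called size, and single genes differed in both directions. The counts of called genes in the lists that follow stand beside 11.8% of all genes called higher and 3.77% called lower between stiff and soft, or 7.64% and 3.97% with the trend subtracted. Of 10 measured genes that start and extend the chain, such as the xylosyltransferases and the Ext polymerases, 0 were called between stiff and soft, and the median ratio of the 11 genes averaging 10 normalized counts or more was 0.02. The same median over all 14291 genes was 0.0004. Between intermediate and soft 1 was called, Xylt1, which attaches the first sugar, with 303 normalized counts on soft, 455 on intermediate and 426 on stiff plates and a ratio of 0.58, which was 0.27 with the trend subtracted and no longer called. Stiff to soft, the ratios of the 10 genes ran from -0.34 for B3galt6, a galactosyltransferase of the linker to the core protein, to 0.49 for Xylt1. With the trend subtracted 1 was called lower, Extl3, a glycosyltransferase of chain initiation. It had 7425, 7454 and 6053 normalized counts on soft, intermediate and stiff plates, a stiff to soft ratio of -0.29 from -0.34 to -0.25, and -0.89 with the trend subtracted. Its stiff to intermediate ratio went from -0.30 to -0.55 in the same way. Of 11 genes that modify and sulfate the chain or supply sulfate, 0 were called in any comparison, and the stiff to soft median over 13 genes was -0.03. With the trend subtracted 0 were called too.

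Of 11 genes that trim or degrade heparan sulfate, 1 was called higher and 1 lower between stiff and soft, with a median ratio of 0.34. Sulf2, a sulfatase that removes sulfate from chains outside the cell, had 1012, 1242 and 1575 normalized counts on soft, intermediate and stiff plates and a stiff to soft ratio of 0.64. Arsg, a lysosomal sulfatase, had 162, 161 and 100.5 and a ratio of -0.68. After subtraction of the trend the median was 0.31, Sulf2 was at 0.36 and 0 genes of the list were called higher and 1 lower. Of 14 genes of chondroitin and dermatan sulfate synthesis, 1 was called: Chst11, a chondroitin sulfotransferase, with 4397, 4769 and 2869 normalized counts and a ratio of -0.62. With the trend subtracted 2 were called lower, Chst11 at -0.77 and the sulfotransferase Chst15 at -0.56.

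Genes listed for shedding or release of these proteoglycans went both ways. Of 12 measured, 2 were called higher and 3 lower between stiff and soft, with a median of 0.03. Mmp3, a secreted matrix protease, had 43770 normalized counts on soft, 33751 on intermediate and 19886 on stiff plates, a ratio of -1.14. Mmp9 stood at -0.93, and Notum, known for releasing lipid from Wnt proteins, at -0.90. Notum was listed for an action on glypican anchors, which was not tested here. The proprotein convertase Pcsk6 was higher, at 0.65, or 0.39 with the trend subtracted. The membrane sheddases Adam10 and Adam17 and the membrane protease Mmp14, named after their values were seen, had ratios of 0.006, 0.004 and 0.02. Less the trend, 0 were called higher and 3 lower.

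Of 15 measured partners of syndecans, 5 were called higher and 1 lower, with a median of 0.18; over all genes 11.8% were called higher and 3.77% lower. Tiam1, a Rac exchange factor that binds the syndecan tail, had 366, 581 and 692 normalized counts on soft, intermediate and stiff plates and a stiff to soft ratio of 0.92, or 0.54 with the trend subtracted. Igf1r, which couples to syndecan-1 and integrins, was at 0.87, but at 0.24 and no longer called with the trend subtracted. Ezr, a linker of the membrane to actin, was at 0.63. Itgb3, an integrin subunit, was lower, at -0.82. Less the trend, 3 were called higher and 1 lower, against 7.64% and 3.97% of all genes. Sdcbp, the syntenin adaptor of all syndecans, named after its values were seen, had 12904, 13208 and 13234 normalized counts and a ratio of 0.04.

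Other proteoglycans able to carry heparan sulfate were all higher on stiff than on soft plates among the 7 measured, with 3 called higher, against 11.8% of all genes, and a median over 8 genes of 0.38. Hspg2, or perlecan, of basement membranes, had 3313, 7266 and 10836 normalized counts on soft, intermediate and stiff plates and a ratio of 1.71. Srgn, the granule proteoglycan of blood cells, was at 0.62, and Nrp1, a receptor for semaphorins and VEGF, at 0.55. Net of the trend Hspg2 was at 0.67, Srgn at 0.74 and Nrp1 at 0.45, and 2 were called, while Agrn and Col18a1 were then lower on stiff plates, at -0.42 and -0.37.

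Ligands of the chains were mixed. Of 18 measured heparin-binding growth factors and receptors, 5 were called higher and 2 lower between stiff and soft, against 11.8% and 3.77% of all genes, with a median of -0.05 over 20 genes. Ptprs, a phosphatase receptor for heparan sulfate, had 980, 1315 and 2255 normalized counts and a ratio of 1.20, which was 0.46 with the trend subtracted. Pdgfb was at 1.04, Hbegf, a growth factor of the EGF family, at 0.73 and the chemokine Cxcl12 at 0.70. Of 14 measured genes of the Wnt, hedgehog and BMP pathways that glypicans bind or modulate, 1 was called higher and 3 lower. The endocytic receptor Lrp1 was at 1.24, and at 0.16 with the trend subtracted. The growth factor Bmp2 was at -0.82, the hedgehog co-receptor Gas1 at -0.55 and the Wnt receptor Fzd1 at -0.53. With the trend subtracted the growth factor list had 4 called higher and 0 lower, and the Wnt, hedgehog and BMP list 0 higher and 4 lower.

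**Figure D5:**
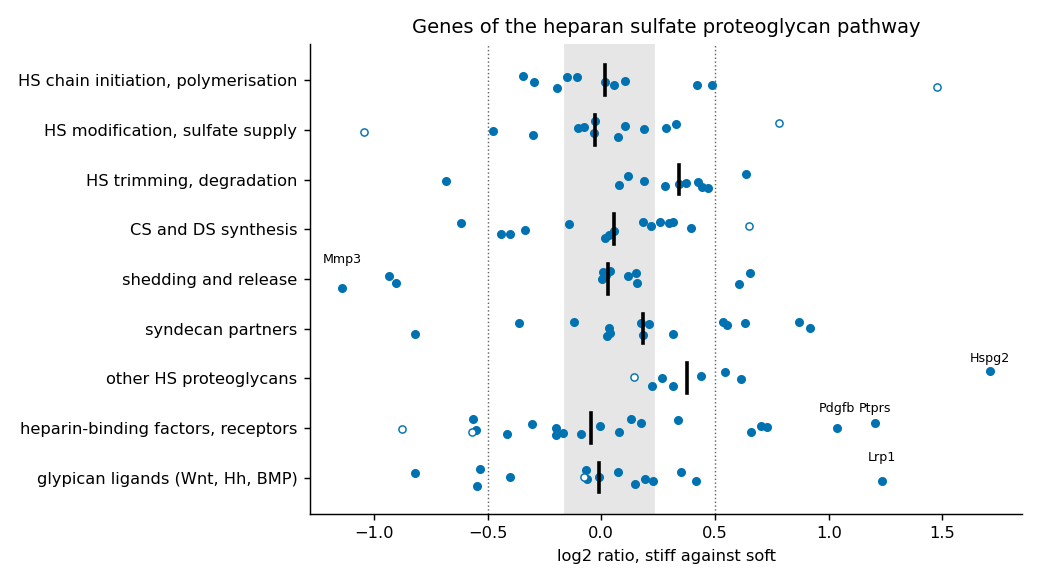
Stiff to soft log2 ratio (x axis) of each gene in 9 lists of the proteoglycan pathway, as deposited; filled points are genes averaging at least 50 normalized counts, open points genes averaging 10 to 50, bars the medians, and the grey band the middle 50% of all 11873 genes (HS, heparan sulfate; CS, chondroitin sulfate; DS, dermatan sulfate; Hh, hedgehog). Genes of the chain-building lists lie on both sides of 0, and Hspg2 at 1.71 and Mmp3 at -1.14 are the outermost genes with a filled point.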

How the data were processed

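The deposited values are a signal, read counts of genes scaled by 1 size factor for each library, in 1 table deposited 3 times with identical content. Each column carries the title of 1 sample. Per the submitters' processing notes the tools were bcl2fastq 2.20.0, STAR 2.7.9a, featureCounts of Subread 2.0.1 and DESeq2 1.34.0, with build GRCm39; the annotation and the strand setting of the counting are not given in the sources used here. Libraries were Illumina TruSeq Stranded mRNA, per the labels' protocols. Dividing a column by its smallest positive value gave whole numbers for 100% of its genes, within 0.001, and these were taken as the reads. With 1 library per level no count test can be made.

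Ratios, intervals and counts were computed with Python 3.11.15, numpy 2.4.6, pandas 2.3.3 and scipy 1.17.1, and tested on simulated data. Coordinates, lengths and GC contents are those of GENCODE vM39 on GRCm39, matched by symbol. The trend is a robust local linear fit over the 300 genes nearest in log2 length and GC content, among genes averaging 10 or more. List genes were named when called, up to 4 a list by size of the stiff to soft ratio. B3galt6, Extl3, Chst15, Agrn and Col18a1 fall outside this rule and were named after their values were seen. The members, lists, threshold and trend correction were chosen with earlier results of these data known. The alternatives were other pseudocounts, scalings, minimum means and thresholds, the trend, and exon-union lengths.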

Additional observations from a re-analysis of the deposited data

How the results depend on the processing

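There was 1 library per level, so leaving out a replicate was not possible. No paired analysis was possible because no level had a second library. Precision beyond counting error is unknown, and depth limits statements on Gpc2 and Gpc3.

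Sdc3, at 0.61 between stiff and soft, was at -0.021 and so nearly level net of the trend in length and GC content. It was the 1 called value whose sign changed. Scaling by total reads, by the upper quartile and by total reads without the 10 most abundant genes gave 0.55 each for Sdc3, and -0.46, -0.46 and -0.47 for Sdc1. Sdc1 was at -0.55 with the trend subtracted. The 4 scalings shifted the stiff to soft ratio by -0.01 to -0.06 on the log2 scale. Of 56 values of the 8 members averaging 50 or more under the alternatives between stiff and soft, 37 stayed inside their counting intervals, as did 50 of 56 between intermediate and soft and 46 of 56 between stiff and intermediate. Other pseudocounts barely change genes with many reads, and the intervals of Gpc3 are wide. Many of these values could therefore hardly leave their intervals, and the totals do not measure robustness. Net of the trend, the members above 0 went from 4 to 2 between stiff and soft and from 2 to 1 between stiff and intermediate. Scaling by total reads without the 10 most abundant genes left 3 above 0 between stiff and soft, with Gpc6 at -0.0004. Thresholds change counts by construction: between stiff and soft 0 members were past 1 and 3 past 0.25. The middle 50% of all genes ran from -0.16 to 0.23 there. The share of all genes past 0.25 was not computed, so whether such counts of members are unusual was not tested. Between intermediate and soft 3 were past 0.25, where the middle 50% ran from -0.08 to 0.14. Between stiff and intermediate 1 was, where it ran from -0.13 to 0.16. Without a minimum mean 1 member, Gpc2 with its 1 to 3 reads, was past 0.5 in each of these last 2 comparisons. Divided by exon-union length, the mean levels per kilobase were 5159 for Sdc1, 1012 for Sdc2, 1719 for Sdc3, 4889.9 for Sdc4, 1117 for Gpc1, 49.1 for Gpc3 and 192 for Gpc6, lower because the union is longer.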

Other observations

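Exons of other genes overlap those of 4 members. Ankmy1 overlaps Gpc1 by 1600 bases on the opposite strand and had 7, 7 and 3 reads in the soft, intermediate and stiff libraries. Gm4755 overlaps Sdc1 by 208 bases and Gm26716 overlaps Sdc3 by 415 bases, both on the opposite strand, with at most 2 and 7 reads in a library. Gm43720 overlaps Gpc2 by 2376 bases on the same strand and had no read; how the counting treated reads shared by both genes is not given in the sources used here.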
